A study of Mus musculus with 14 samples.

Results

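A group of 10 endothelial genes, the receptors Kdr, Flt1, Tek and Tie1, the surface and junction genes Pecam1, Cdh5, Emcn and Esam and the transcription factors Etv2 and Sox18, were followed through the differentiation of mouse embryonic stem cells (ESCs), and Kdr was set against the other 9. They are 10 of the 50686 genes counted, and each has 1 entry among the 16181 genes of the deposited table of normalised expression values (CPM, defined below). The genes were chosen by name, with their levels by line and day in these libraries already known, so that every level and difference below is a description and none was tested. RNA came from 2 ESC lines, 1 with an shRNA against LacZ, a bacterial gene with no mouse target (shLacZ, the control), and 1 with an shRNA against the exoribonuclease gene Dis3l2 (shDis3l2). Each line was sampled undifferentiated in medium with LIF and 2i (d0) and as embryoid bodies (EBs), aggregates made in hanging drops with serum and without LIF and 2i, every 2 days from d2 to d12. There was 1 library per line and day, 14 in all, and thus no replicate. The study describes the ESCs depleted of DIS3L2 or LacZ as carrying an Osr1-GFP reporter, so that the reporter is shared by both lines.

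Endothelial cells line blood vessels and arise in the embryo from mesoderm that expresses Kdr, the main signalling receptor for vascular endothelial growth factor (VEGF), under the transient control of the ETS factor Etv2. VE-cadherin (Cdh5), PECAM1 and ESAM then hold the cells together at their junctions, while TEK and TIE1 form the angiopoietin receptor system that steadies the vessel wall. Kdr is not limited to endothelium, since early and cardiac mesoderm express it too, and Pecam1 is also a surface antigen of undifferentiated mouse ESCs.

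Values are CPM, the reads of a gene over all reads counted on genes in the library times 1000000, and levels of different genes are compared only per kilobase of exon (RPKM). A fold is the shDis3l2 level over the shLacZ level of the same day, with a 95% exact interval that covers counting error only. A gene was called higher or lower when the fold reached 3 in either direction and the CPM was at least 1 in 1 of the 2 libraries. Between 7178712 and 39888099 reads were counted per library, and 3 reads, the floor used here, stand for 0.0752 CPM in the deepest library (shLacZ d0) and 0.418 CPM in the shallowest (shLacZ d4). Dis3l2 itself was at 0.137 of the control level in shDis3l2 at d0 (0.111 to 0.167) and at 0.552 at d6 (0.449 to 0.675), but at 0.971 (0.837 to 1.13) at d8 and 0.9499 (0.788 to 1.15) at d10, so that the depletion was not detectable in these libraries on the days on which Kdr differed most.

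Of the VEGF receptor genes among the 10, Kdr stood higher and Flt1 lower in shDis3l2 at d8 and d10. For that reason the 250 bases before their RefSeq start sites (GRCm38.p6, minus strand, printed 5′ to 3′) are shown, with matches to the ETS motifs in capitals. The Kdr stretch is chr5:75978456-75978705 and the Flt1 stretch is chr5:147726012-147726261.
Kdr: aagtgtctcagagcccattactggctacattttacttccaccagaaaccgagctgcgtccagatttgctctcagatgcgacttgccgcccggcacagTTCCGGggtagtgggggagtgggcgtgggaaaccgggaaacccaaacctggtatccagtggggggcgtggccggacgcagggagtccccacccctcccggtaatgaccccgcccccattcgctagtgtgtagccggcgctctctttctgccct
Flt1: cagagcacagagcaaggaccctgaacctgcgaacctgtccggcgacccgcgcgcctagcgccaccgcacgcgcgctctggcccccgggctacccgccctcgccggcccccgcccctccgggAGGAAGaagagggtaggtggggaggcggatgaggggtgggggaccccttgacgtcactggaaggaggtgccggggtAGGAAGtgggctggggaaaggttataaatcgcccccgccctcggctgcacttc
The motif CCGGAA was found once in the Kdr window, on the other strand at -153 to -148 from the start site, and AGGAAG was found in the Flt1 window at -129 to -124 and at -53 to -48. A window of 250 bases before to 50 after the start held CCGGAA on either strand in 14.9% and AGGAAG in 35.4% of 32851 RefSeq promoters. Of the 10 genes, 6 had a promoter entry, and AGGAAG was present in 4 of them (Emcn, Etv2, Flt1 and Tie1). The FOX:ETS core ACAGGAA, which can overlap AGGAAG, was present in Emcn and Tie1 (8.67% of promoters), the SOX motif AACAAT in Emcn and Tek (10.7%), and the SOX motif ACAAAG (18.7%) and the GATA motif AGATAA (11.2%) in Tek. These matches are letters in a window and were not measured as binding.

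Kdr (ENSMUSG00000062960, chromosome 5, 75932827 to 75978458, minus strand) rose in both lines until d6. From d6 to d8 it fell in shLacZ and rose further in shDis3l2. In shLacZ it was at 1.63, 11.5, 68.8, 109, 70.6, 26.4 and 32.5 CPM from d0 to d12. In shDis3l2 it was at 1.66, 3.22, 115, 134, 262, 182 and 99.0 CPM over the same days. The control thus peaked at d6 and the depleted line at d8, where Kdr was the highest of the 10 genes per kilobase, at 29.0 RPKM (28.2 to 29.8) against 10.1 (9.43 to 10.7) for Tek, the next. The fold between the lines was 1.02 (0.679 to 1.52) at d0, and Kdr was called lower in shDis3l2 at d2, at 0.282 (0.213 to 0.366). On d4 and d6, with folds of 1.68 (1.52 to 1.85) and 1.23 (1.14 to 1.32), it did not reach the threshold. From d8 on Kdr was called higher, with folds of 3.71 (3.48 to 3.95) on d8, 6.91 (6.03 to 7.96) on d10 and 3.04 (2.69 to 3.46) on d12. The d12 call did not survive TMM scaling (2.84) or the size factors of DESeq2 (2.88). In these bulk samples, more cells with Kdr and more Kdr RNA per cell cannot be told apart.

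**Figure D1:**
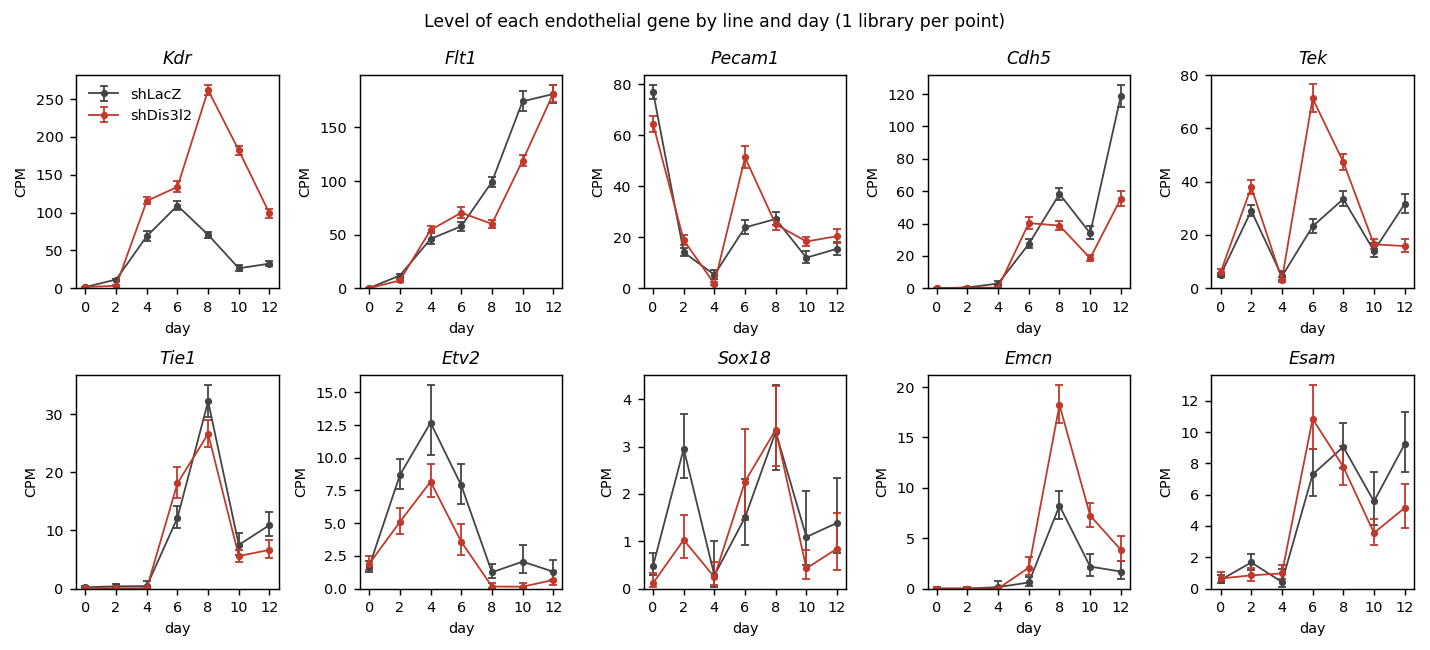
CPM of each of the 10 genes (y axis, linear from 0, own scale per panel) by day (x axis) in shLacZ (grey) and shDis3l2 (red), 1 library per point, with bars for the 95% exact counting interval. Kdr in shDis3l2 peaks at 262 CPM at d8 while shLacZ peaks at 109 CPM at d6, and Cdh5 ends higher in shLacZ (119 CPM) than in shDis3l2 (55.4 CPM).

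Flt1 (ENSMUSG00000029648, chromosome 5, 147561604 to 147726011, minus strand) encodes VEGFR1, which binds VEGF tightly but signals weakly and can act as a decoy. It was at 0.226, 11.9, 46.0, 57.8, 99.2, 174 and 181 CPM in shLacZ from d0 to d12. The corresponding shDis3l2 levels were 0.113, 7.29, 54.3, 70.4, 60.0, 119 and 182 CPM. Both lines therefore reached their highest Flt1 level at d12, without a peak like that of Kdr. The fold was 0.605 (0.561 to 0.652) at d8 and 0.683 (0.640 to 0.729) at d10, on the days when Kdr was 3.71 and 6.91 times the control. At d12 Flt1 did not differ beyond counting error, at 1.003 (0.940 to 1.07). Flt1 was called on none of the 7 days.

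Tek (ENSMUSG00000006386, chromosome 4, 94739289 to 94874976, plus strand) encodes TIE2, the receptor for the angiopoietins. From d0 to d12 shLacZ held 5.06, 29.1, 4.46, 23.2, 33.5, 14.04 and 31.6 CPM and shDis3l2 6.04, 37.9, 3.24, 71.3, 47.4, 16.5 and 15.8 CPM. Tek had a first rise at d2, a fall at d4 and a second rise at d6 in both lines. It was called higher in shDis3l2 at d6 (3.07, 2.68 to 3.51), and at d12 it was at 0.500 of the control (0.413 to 0.605). Tie1 (ENSMUSG00000033191, chromosome 4, 118471191 to 118490061, minus strand), the receptor that pairs with TEK, held 9, 10 and 3 reads in shLacZ and 3, 1 and 1 reads in shDis3l2 at d0, d2 and d4. From d6 to d12 it was at 12.2, 32.2, 7.50 and 10.9 CPM in shLacZ and at 18.1, 26.6, 5.59 and 6.65 CPM in shDis3l2. Both lines showed the peak at d8, and the fold was 1.49 (1.20 to 1.84) on d6, 0.827 (0.732 to 0.934) on d8 and 0.610 (0.446 to 0.829) on d12.

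Cdh5 (ENSMUSG00000031871, chromosome 8, 104101625 to 104144511, plus strand), the adhesion molecule most closely tied to endothelial identity, was nearly absent before d6. It had 1, 12 and 21 reads in shLacZ at d0, d2 and d4 and 0, 7 and 8 reads in shDis3l2. The levels from d6 to d12 were 27.4, 58.3, 34.0 and 119 CPM in shLacZ and 40.2, 38.7, 18.6 and 55.4 CPM in shDis3l2. Cdh5 was called lower in shDis3l2 at d4 (0.136, 0.0506 to 0.311). On d6 its fold was 1.47 (1.28 to 1.70), and on d8, d10 and d12 it was 0.665 (0.604 to 0.731), 0.546 (0.467 to 0.638) and 0.466 (0.422 to 0.515). The control was thus higher on the 3 days on which Kdr was called higher in shDis3l2. The median log2 fold of the genes of chromosome 8 lay between -0.47 and -0.28 on all 7 days, against a median over all protein-coding genes of -0.32 at d0, where chromosome 8 was at -0.47, and between -0.07 and 0.05 from d2 to d12, and the part of this shift in the Cdh5 values was not tested.

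Pecam1 (ENSMUSG00000020717, chromosome 11, 106654217 to 106750628, minus strand) was at its highest in the undifferentiated cells. Its levels from d0 to d12 were 77.1, 14.1, 5.29, 23.8, 27.2, 12.0 and 15.5 CPM in shLacZ and 64.5, 18.8, 1.79, 51.3, 25.1, 18.3 and 20.4 CPM in shDis3l2. At d0 it held most of the reads of the 10 genes, with 3075 of 3469 in shLacZ and 1707 of 1987 in shDis3l2, while Cdh5 had 1 and 0 reads and Emcn had 0 in both. The label endothelial thus goes against the data at d0, and it is used here for d6 onward. At d0 the summed level of 9 naive ES cell markers was at its highest (3359 CPM in shLacZ, 2506 CPM in shDis3l2). Not each of these 9 was highest at d0. Klf4 was highest at d12 in both lines, Tbx3 at d6 in shLacZ and Pou5f1 at d2 in shDis3l2. After the low at d4 Pecam1 rose to d6 in both lines, by 4.49-fold (3.21 to 6.48) in shLacZ and 28.5-fold (20.5 to 41.2) in shDis3l2. The fold between the lines was 2.15 (1.87 to 2.48) at d6 and 0.924 (0.812 to 1.05) at d8. It was 1.53 (1.22 to 1.93) at d10 and 1.32 (1.07 to 1.63) at d12. Its direction at d0 depended on scaling, with 0.836 by library totals, 0.955 by TMM and 1.10 by DESeq2 size factors.

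Emcn (ENSMUSG00000054690, chromosome 3, 137341067 to 137432185, plus strand), a sialomucin of capillary and venous endothelium, was higher in shDis3l2 on each day from d6 to d12. It had at most 1 read in any library up to d4. From d6 to d12 it was at 0.601, 8.22, 2.18 and 1.69 CPM in shLacZ and at 2.07, 18.2, 7.25 and 3.84 CPM in shDis3l2. On d6 and d8 the fold was 3.39 (1.48 to 8.96) and 2.21 (1.82 to 2.71), and on d10 and d12 it was 3.31 (2.04 to 5.76) and 2.27 (1.27 to 4.28). Emcn was called higher at d6 and d10, although the d6 value rests on 8 and 22 reads. Esam (ENSMUSG00000001946, chromosome 9, 37528078 to 37538319, plus strand), an adhesion molecule of endothelial tight junctions, was at 7.29, 9.05, 5.57 and 9.22 CPM in shLacZ and at 10.8, 7.79, 3.55 and 5.15 CPM in shDis3l2 from d6 to d12. Before d6 it held at most 1.67 CPM in any library, and the late folds of Esam ran like those of Cdh5, from 1.49 (1.13 to 1.97) at d6 to 0.559 (0.393 to 0.788) at d12.

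Etv2 (ENSMUSG00000006311, chromosome 7, 30633616 to 30635852, minus strand), which switches on the endothelial and blood programme for a short time, preceded the junction genes. It was at 1.68, 8.68, 12.7, 7.89, 1.24, 2.06 and 1.29 CPM in shLacZ and at 1.89, 5.09, 8.17, 3.58, 0.153, 0.142 and 0.656 CPM in shDis3l2. Both lines peaked at d4, and shDis3l2 was lower on each day from d2 on. At d12 this was within counting error (0.514, 0.172 to 1.37, on 13 and 7 reads). The fold was 0.645 (0.496 to 0.841) at d4 and 0.455 (0.305 to 0.664) at d6. Etv2 was called lower at d8 (0.133, 0.0235 to 0.412) and at d10 (0.0753, 0.0130 to 0.239), on 21 and 17 reads in shLacZ and 3 reads each in shDis3l2. Sox18 (ENSMUSG00000046470, chromosome 2, 181669836 to 181671640, minus strand), a factor of early vessel and lymphatic development, peaked at d8, with 3.31 CPM in the control and 3.36 CPM in the depleted line (fold 1.01, 0.699 to 1.47). It had an earlier maximum of 2.96 CPM in shLacZ at d2, against 1.03 CPM in shDis3l2 (0.351, 0.206 to 0.564).

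Read together, few of the 10 genes were called on any day. At d0 none was called in either direction, where 0.584% of 12161 protein-coding genes were called higher and 2.25% lower. At d2 Kdr alone was called, lower, and none higher, against 0.129% and 0.114% of all genes in these directions. Cdh5 alone was lower at d4 and none was higher, against 1.68% and 0.361%. Tek and Emcn were higher at d6 and none was lower, against 2.70% and 4.23% of all genes. Kdr was higher and Etv2 lower at d8, against 5.47% and 3.71%. Kdr and Emcn were higher and Etv2 lower at d10, against 8.68% and 3.12%. Kdr alone was higher and none was lower at d12, against 8.07% and 1.50%. Since the genes were chosen with these values known, nothing is read from these shares.

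The median log2 fold of the 10 genes from d6 to d12 was 0.57, -0.17, -0.49 and -0.71 in turn, while that of all protein-coding genes stayed within 0.05 of 0 on these days. Kdr had the highest fold of the 10 genes at d8 and d10, and at d12 its fold of 3.04 and that of Emcn, 2.27, were not apart beyond counting error. At d12 Cdh5, Tek, Tie1 and Esam were lower in shDis3l2 beyond counting error, and Pecam1 was higher.

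**Figure D2:**
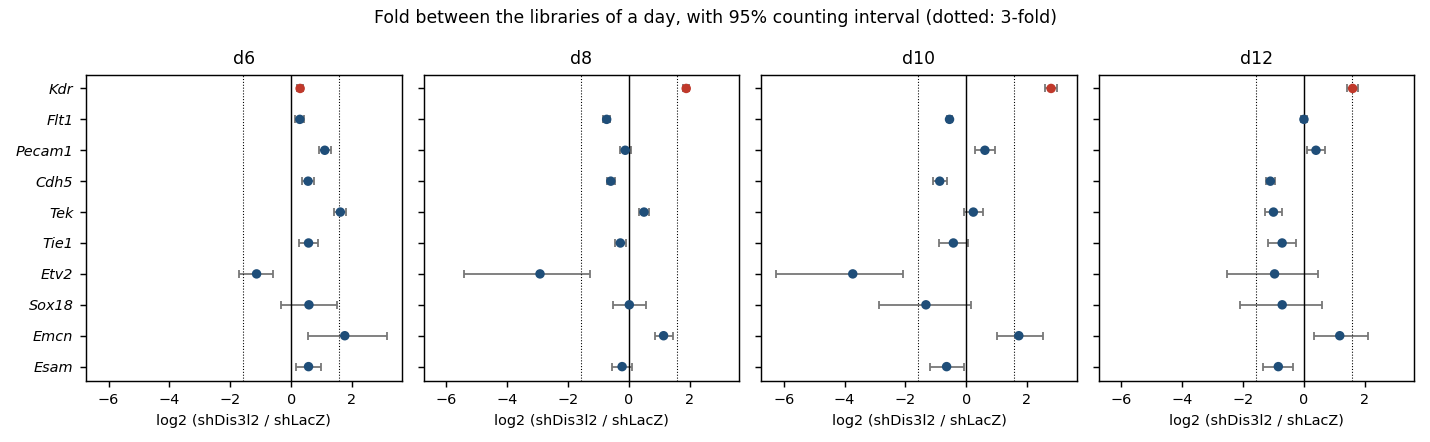
Log2 of the shDis3l2 over the shLacZ level (x axis) for each of the 10 genes (y axis) at d6, d8, d10 and d12, with bars for the 95% exact counting interval and dotted lines at 3-fold. Kdr (red) lies beyond the upper dotted line at d8, d10 and d12 (log2 of 1.89, 2.79 and 1.605), while Cdh5 moves from 0.56 at d6 to -1.10 at d12.

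From day to day within a line, the main step of the group was from d4 to d6. In shLacZ 6 of the 10 genes rose at least 3-fold in this step (Pecam1, Cdh5, Tek, Tie1, Sox18 and Esam), against 4.80% of all protein-coding genes. In shDis3l2 7 rose, the same 6 and Emcn, against 8.33% of all genes. The VEGF receptor genes Kdr and Flt1 rose before that. From d0 to d2 Flt1 rose 49.6-fold (27.3 to 116) in shLacZ and 57.4-fold (21.6 to 315) in shDis3l2, from 9 and 3 reads. Kdr rose 6.997-fold (5.38 to 9.36) in shLacZ and 1.93-fold (1.31 to 2.90) in shDis3l2. In this step 26.5% of all genes in shLacZ and 33.4% in shDis3l2 rose at least 3-fold. The median log2 fold of all genes was 0.50 and 0.78, against 2.81 and 0.95 for Kdr. Both receptor genes rose again from d2 to d4. In that step 3 genes rose in shLacZ (Kdr, Flt1 and Cdh5) against 6.71% of all genes, and 2 in shDis3l2 (Kdr and Flt1) against 7.29%. The Kdr step from d2 to d4 was 5.99-fold (5.18 to 6.94) in shLacZ and 35.7-fold (28.2 to 46.2) in shDis3l2, which started from the lower d2 level. After d8, Tie1 fell to 0.234 (0.176 to 0.304) of its level in shLacZ and to 0.210 (0.171 to 0.257) in shDis3l2 by d10.

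The share of Kdr among the reads of the 10 genes sets it directly against the rest. In shLacZ Kdr held 1.87, 14.2, 48.7, 40.3, 20.6, 9.45 and 8.05% of these reads from d0 to d12. In shDis3l2 it held 2.21, 4.32, 62.5, 33.2, 53.5, 49.1 and 25.4%. The share was highest at d4 in both lines, and at d8 and d10 it was high again in shDis3l2 alone. The ratio of Kdr to the summed reads of the other 9 was, in shDis3l2 over shLacZ, 1.19 (0.787 to 1.77) on d0, 0.272 (0.205 to 0.358) on d2, 1.76 (1.53 to 2.03) on d4 (3.01 without Flt1, an alternative chosen after seeing the data) and 0.735 (0.669 to 0.807) on d6. On the later days it was 4.44 (4.11 to 4.79), 9.22 (7.96 to 10.7) and 3.89 (3.41 to 4.46). Against single genes at d10 it was 10.1 (8.69 to 11.8) for Flt1, 12.7 (10.3 to 15.6) for Cdh5 and 5.89 (4.54 to 7.61) for Tek, but 2.08 (1.18 to 3.47) for Emcn. At d12 the interval against Emcn held 1 (1.34, 0.702 to 2.44).

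**Figure D3:**
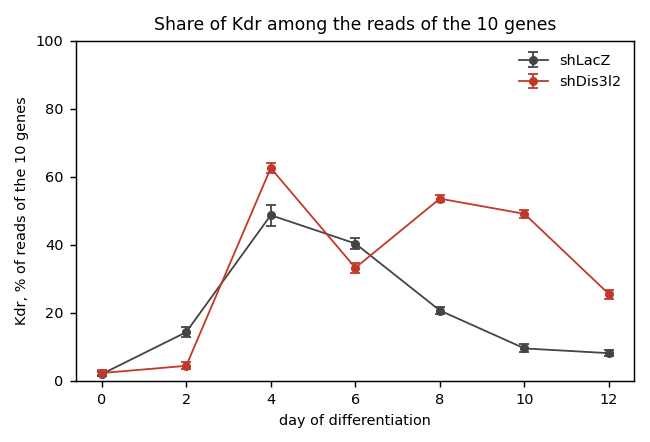
Share of Kdr among the reads of the 10 genes (y axis, %) by day (x axis) in shLacZ (grey) and shDis3l2 (red), 1 library per point, with bars for the 95% exact binomial interval. The lines lie furthest apart at d10, with 9.45% in shLacZ and 49.1% in shDis3l2. Their intervals are also apart at d2, d4 and d6, with shLacZ higher at d2 and d6 and lower at d4.

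Per kilobase the order of the genes changed in the same way. At d8 Cdh5 led in shLacZ at 13.9 RPKM (13.0 to 14.8), followed by Kdr (7.82, 7.39 to 8.28), Flt1 (7.34, 6.996 to 7.70) and Tek (7.11, 6.53 to 7.72), whose intervals overlap between neighbours. In shDis3l2 Kdr led at 29.0 RPKM, with Tek at 10.1 and Cdh5 at 9.21 (8.57 to 9.89), whose intervals also overlap. At d10 Kdr was the fourth in shLacZ at 2.92 RPKM (2.55 to 3.34), not distinguishable from Tek at 2.98 (2.46 to 3.57), behind Flt1 at 12.9 (12.3 to 13.6) and Cdh5 at 8.09 (7.17 to 9.10). In shDis3l2 at d10 it was the first, at 20.2 RPKM (19.6 to 20.8), ahead of Flt1 at 8.81 (8.47 to 9.17). At d12 Cdh5 led the control at 28.3 RPKM (26.7 to 29.9), while in shDis3l2 Flt1 (13.5, 12.9 to 14.1) and Cdh5 (13.2, 12.2 to 14.3) overlapped and Kdr came next at 10.96 (10.3 to 11.6).

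Over the 14 libraries, Pearson's r of log2(CPM + 1) with Kdr was 0.83 for Flt1, 0.67 for Cdh5, 0.66 for Tie1 and Emcn and 0.62 for Esam. It was 0.31 for Sox18, 0.28 for Tek, -0.16 for Etv2 and -0.39 for Pecam1. Over the 8 libraries of d6 to d12 it was -0.69 for Flt1, -0.52 for Cdh5, -0.27 for Etv2 and -0.13 for Esam. On these days it was 0.58 for Pecam1, 0.54 for Emcn, 0.36 for Tek, 0.24 for Tie1 and 0.18 for Sox18. These are descriptions over libraries that share their line and their day. The 5 protein-coding genes most like Kdr, among 12854 that reached a CPM of 5 in any library, were Zc3h12b (r 0.98), Fam171a1 (0.98), Cap2 (0.97), Wipf1 (0.97) and Isl1 (0.97). Isl1, a transcription factor of the second heart field, was at 13.9 and 19.8 CPM on d6 and at 4.72 and 23.8 CPM on d10 in shLacZ and shDis3l2, a fold of 5.02 (3.63 to 7.17). By Spearman's rho 1 of these 5 (Cap2) stayed among the first 5, and without d0 2 did (Zc3h12b and Wipf1). The 5 most like the mean z-score of the other 9 genes were Adgrf5 (0.97), Erg (0.97), Pcdh12 (0.95), Zfp711 (0.95) and Acvrl1 (0.94). Erg, an ETS factor of endothelium, was at 3.03 and 2.70 CPM at d10 in shLacZ and shDis3l2, a fold of 0.892 (0.548 to 1.49).

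Other genes of the VEGF and angiopoietin systems were followed as lists. Of 8 VEGF ligands, co-receptors and the lymphatic receptor Flt4, 1 was called higher at d6, d8 and d12 and 2 at d10, and none was called lower from d6 on, against 2.70, 5.47, 8.68 and 8.07% of all protein-coding genes called higher from d6 to d12. Pgf, a ligand of VEGFR1, was the gene called on all 4 days, at 4.36, 4.14, 2.42 and 2.28 CPM in shLacZ and 17.7, 17.3, 17.8 and 14.4 CPM in shDis3l2. The neuropilin gene Nrp1, a VEGF co-receptor, was at 165 and 425 CPM at d8 and at 93.8 and 411 CPM at d10 in shLacZ and shDis3l2, where its fold of 4.38 (4.07 to 4.72) was called. Nrp2 was at 154 and 377 CPM at d8 (2.44, 2.34 to 2.56). The receptor gene Flt4 was lower in shDis3l2, like Flt1, at d8 (0.715, 0.586 to 0.869) and d10 (0.539, 0.376 to 0.773). It was lower at d12 as well (0.378, 0.268 to 0.525), after 1.96 (1.54 to 2.52) at d6. Among 4 genes of angiopoietin signalling, the TEK agonist Angpt1 was called higher on all 4 days. Its fold was 9.57 on d6, followed by 6.17 (5.35 to 7.15), 11.1 (8.34 to 15.2) and 5.86 (4.51 to 7.73). Angpt4 was called higher on d6 alone, on 1 and 19 reads. Ptprb was never called, with folds of 1.65, 0.721, 0.554 and 0.613 from d6 to d12, each beyond counting error. These calls stand against the same shares of all genes as the VEGF list. On d8 Angpt2 was at 5.98 CPM in the control and at 30.5 CPM in the depleted line (5.10, 4.13 to 6.37). Of the receptor genes, Flt1 had folds of 0.605 at d8 and 0.683 at d10. Those of Tek were 1.42 (1.27 to 1.58) and 1.17 (0.949 to 1.46). The ligand genes Pgf, Angpt1 and Angpt2 stood higher in shDis3l2 on both d8 and d10. Vegfa, the ligand of the receptors that Kdr and Flt1 encode, was lower in shDis3l2 on these days. It was at 81.1 CPM in the control and 59.2 CPM in shDis3l2 at d8 (0.730, 0.675 to 0.790). At d10 it was at 94.4 and 79.0 CPM (0.837, 0.769 to 0.913).

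Further endothelial lists were followed in the same way. Of 16 other endothelial markers, 1 was called higher and 1 lower at d8, and their summed levels were 208 CPM (shLacZ) and 211 CPM (shDis3l2). At d10 none was called higher and 1 lower, and the sums were 129 and 103 CPM. Eng and Egfl7, the most abundant by mean CPM, had folds of 0.665 (0.563 to 0.784) and 0.681 (0.611 to 0.759) at d8. Plvap was lower as well (0.819, 0.682 to 0.982), while Cldn5, Cd34, Icam2, Clec14a and S1pr1 went the other way at d8. Their folds were 1.69, 1.71, 1.33, 2.75 and 1.34, with intervals above 1. Icam2 was called higher at d6 (4.48, 2.41 to 9.13) and Cd34 at d12 (3.03, 2.24 to 4.17), against 2.70 and 8.07% of all genes. The gene called higher at d8 was Vwf, von Willebrand factor, at 3.21 (2.61 to 3.99), which was at 9.81 and 5.87 CPM at d10 in shLacZ and shDis3l2. Apln, the ligand of the apelin receptor, was the lower one at d8 and d10, with folds of 0.229 (0.169 to 0.304) and 0.130 (0.0824 to 0.197). Of 15 endothelial transcription factor genes 1 was called higher and 2 lower at d8, and 3 higher and none lower at d10, against 5.47 and 3.71% of all genes at d8 and 8.68 and 3.12% at d10. The 2 lower at d8 were Sox7 (0.307, 0.261 to 0.358) and Hhex (0.329, 0.238 to 0.447), and at d10 Mef2c was higher (3.69, 2.50 to 5.68) beside Nr2f2 and Foxc2. Plvap, Cldn5, Cd34, Icam2, Clec14a, S1pr1, Vwf, Sox7, Hhex and Mef2c were picked after their values were seen. Sox17, a factor of arterial endothelium and of endoderm, was at 0.477 (0.421 to 0.538) at d8 and 0.409 (0.369 to 0.452) at d10, and Ets1 was at 1.88 (1.75 to 2.03) and 1.77 (1.598 to 1.96). Nr2f2, which specifies veins and is also expressed in mesenchyme, was at 12.0 and 47.2 CPM at d10 and 15.6 and 60.3 CPM at d12 (3.94 and 3.87). Foxc2 was higher at d8 (6.72, 2.19 to 37.1) and d10 (5.19, 1.71 to 27.0), on 3 reads in shLacZ on both days. None of 10 Notch and arterial genes was called on any of the 7 days. Ephb4 and Efnb2, the most abundant of them, had folds of 1.001 and 1.24 at d10.

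Markers of other cell types that EBs can hold also differed between the lines, on days and in directions that matched those of Kdr in part. The calls below stand against 2.70, 5.47, 8.68 and 8.07% of all genes called higher and 4.23, 3.71, 3.12 and 1.50% called lower from d6 to d12. The summed level of 9 pericyte and smooth muscle markers was 6.01, 10.5, 8.62 and 4.70 times the control in shDis3l2 from d6 to d12, with 3, 4, 6 and 6 of the 9 genes called higher and 2 of them at 0 reads in shLacZ at d10. Acta2, smooth muscle actin, which cardiac progenitors also express, was at 136 CPM on d8 in the control and at 1838 CPM in shDis3l2. It made up most of this sum in shDis3l2 from d6 to d12. At d6 the Acta2 fold was 13.4, against 4.48 for Tagln, 3.59 for Rgs5 and 2.75 for Pdgfrb of the same list. Cspg4 (1.56, 0.685 to 3.67) and Des (1.31, 1.01 to 1.69) differed less at d6. Myh11 (6 and 14 reads in shLacZ and shDis3l2), Kcnj8 (6 and 1) and Abcc9 (5 and 2) rested on few reads, and the latter 2 pointed lower. For 7 cardiomyocyte markers the ratio was 5.23, 5.84 and 3.07 from d8 to d12, with 4, 5 and 5 genes called higher. At d6 Tnnt2 (3.46, 1.86 to 6.97) and Actc1 (3.03, 2.00 to 4.71) were already called higher, and no other gene of this list was called. The ratio of 14 blood markers was 2.35, 1.68, 1.67 and 3.197 from d6 to d12, with 2, 2, 2 and 8 called higher. The 9 naive ES cell markers were at 0.410, 0.340, 0.400 and 0.700 of the control from d6 to d12, with 8, 5, 1 and 0 of them called lower. At d4, the summed level of 11 early mesoderm markers was 1.91 times the control, beside a Kdr fold of 1.68. At d6, where the Kdr fold was 1.23, the pericyte and smooth muscle sum already stood at 6.01 times the control. The part of these cell types in the Kdr values was not tested.

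**Figure D4:**
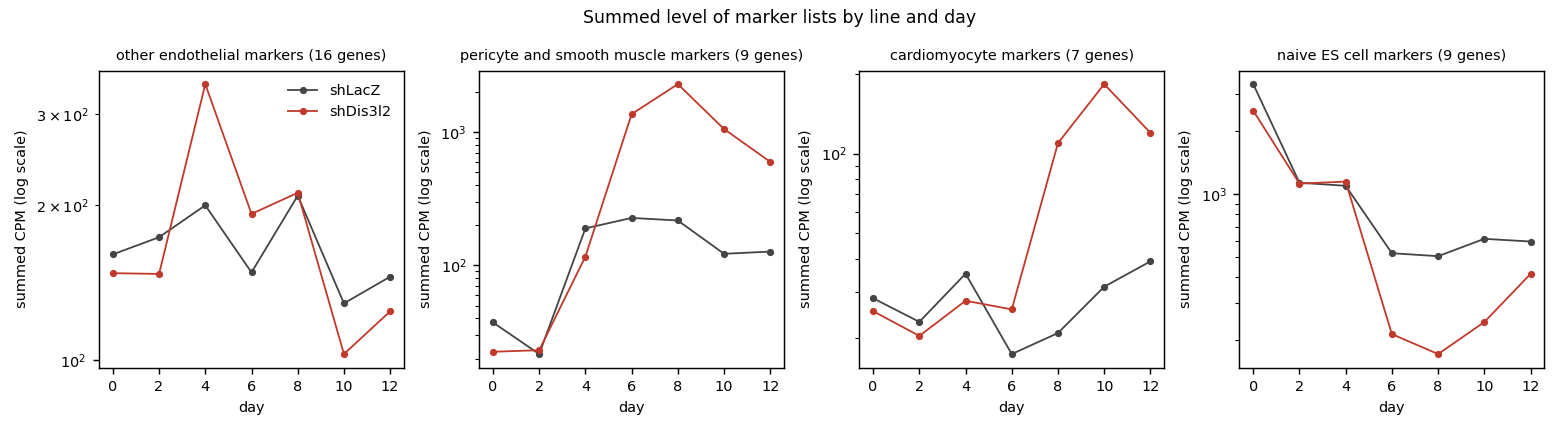
Summed CPM (y axis, log scale, own range per panel) of 16 other endothelial, 9 pericyte and smooth muscle, 7 cardiomyocyte and 9 naive ES cell markers by day (x axis) in shLacZ (grey) and shDis3l2 (red), 1 library per point. At d8 the endothelial sums are 208 and 211 CPM, while the pericyte and smooth muscle sums are 217 CPM in shLacZ and 2284 CPM in shDis3l2. Of the latter sums, Acta2 alone holds 136 and 1838 CPM.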

How the data were processed

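The authors isolated polyA RNA, aligned the reads with Subread (GRCm38), obtained reads per gene from featureCounts and deposited these raw counts beside a gene length column. The deposited CPM values equal the count plus 0.25 over the sum of that quantity for the 16181 listed genes, and served as an alternative denominator. CPM was computed here from the counts with library totals, and folds used a prior of 0.25 reads, scaled by depth. The columns named shm5 were taken as the shDis3l2 line, since a supplementary sheet of the study pairs that name with it. Protein-coding genes (21939) are those of the deposited table or GENCODE. Intervals are exact (Clopper-Pearson, 95%), and like the floor of 3 reads they reflect counting error alone, because no molecular identifiers separate PCR copies. Python 3.11.15, scipy 1.17.1, R 4.3.3, and, for scaling alternatives alone, edgeR 4.0.16 and DESeq2 1.42.0 were used. The 10 genes and the 11 lists (111 genes, all matched) were chosen with earlier results of these data known. Beside the 10 genes, the text names Dis3l2 and the genes most like Kdr or the other 9. It also names some of the list genes that are the 2 most abundant of a list or are called the same way on neighbouring days. Vegfa, Flt4, Angpt4, Ptprb, Vwf, Plvap, Cldn5, Cd34, Icam2, Clec14a, S1pr1, Sox7, Hhex, Mef2c, Pdgfrb, Rgs5, Cspg4, Des, Klf4, Tbx3, Hand1, Elf5, Prl3d1 and Prl2c2 were picked after their values were seen. Folds, calls, intervals and likeness were tested on simulated counts that held counting error alone. The planted folds lay beyond the calling threshold, in genes well above the floor. This check thus does not cover variation between cultures or calls on few reads. Whether counting used strand is not given in the sources used here. Of the 10 genes Cdh5 alone overlaps another gene, on the other strand and with no shared exon.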

Additional observations from a re-analysis of the deposited data

Results flagged for a closer look

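In 4 steps a receptor gene moved in opposite directions in the lines, with both counting intervals clear of 1. From d6 to d8 Kdr went to 0.647 of its level in shLacZ (0.599 to 0.699) and rose 1.95-fold in shDis3l2 (1.84 to 2.07). From d10 to d12 Kdr rose 1.23-fold in shLacZ (1.04 to 1.47) and went to 0.543 in shDis3l2 (0.507 to 0.581). From d6 to d8 Flt1 did the reverse of Kdr, at 1.72-fold in shLacZ (1.57 to 1.87) and 0.852 in shDis3l2 (0.777 to 0.935). Over the same days Tek rose 1.44-fold in shLacZ (1.25 to 1.66) and went to 0.666 in shDis3l2 (0.604 to 0.734). With 1 library per line and day these differences between the lines were not tested.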

How the results depend on the processing

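The Kdr fold kept its direction on all 7 days under TMM, DESeq2 size factors, the deposited CPM and a prior count of 2, but at d12 it passed below 3 with TMM (2.84) and DESeq2 size factors (2.88), so that the number of genes called higher at d12 went from 1 to 0 under both. With no minimum CPM the genes called lower were 1 at d0, 2 at d2 and 3 at d4, and 1 gene rose from d10 to d12 in shDis3l2. In the same setting the genes that rose in shLacZ were 6 from d0 to d2 (from 5), 4 from d2 to d4 (from 3) and 7 from d4 to d6 (from 6), and in shDis3l2 4 from d0 to d2 (from 3). At a 2-fold threshold 2 genes were lower at d2, 2 at d4, 1 at d6, 2 at d10 and 1 at d12, and 3 were higher at d6, 2 at d8 and 2 at d12. Per kilobase, Kdr against the other 9 was 2.31 at d4 and 4.67 at d12. Without Flt1, an alternative chosen after seeing the data, from d4 to d12 it was 3.01, 0.639, 3.83, 7.71 and 5.33. Without Pecam1 it moved within its counting interval on all 7 days. The labels give no replicate numbers, and with 1 library per line and day none could be left out. A fit of line over the 7 days with day as a term was not run, since the genes were chosen with these levels known. The shallowest library, shLacZ d4, limits the d4 values of Tie1, Sox18, Emcn and Esam, which rest on at most 3 reads in it. The cause of these shifts was not tested.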

Other observations

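Early mesoderm genes of the primitive streak were lower in shDis3l2 after d4, although their list sum was not. T, the brachyury gene, was called lower at d6 (29.9 CPM in shLacZ, 6.50 in shDis3l2), d8 and d10 (32.9 and 2.13 CPM). Eomes was lower on these days and at d12, with 45.9 and 2.84 CPM at d10, and Mixl1 was at 16.3 and 0.379 CPM at d10. On d6 and d8 the sum of the 11 genes stood at 1.17 and 1.51 times the control. Hand1, a factor of lateral and cardiac mesoderm picked after its values were seen, had folds of 1.97 (1.87 to 2.09) and 2.99 (2.78 to 3.23) on these days, and Pdgfra, a mesenchymal receptor, 0.857 (0.808 to 0.910) and 1.19 (1.15 to 1.23). Of 8 trophoblast markers 1 was called lower at d6, none was called at d8 and d10, and 1 was called higher at d12. Elf5, Prl3d1 and Prl2c2 stayed below 1 CPM on these days. Of all protein-coding genes, 2.70, 5.47, 8.68 and 8.07% were called higher and 4.23, 3.71, 3.12 and 1.50% lower from d6 to d12.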
